A study of Rattus norvegicus with 25 samples.

Results

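Exposure to a severe stressor was examined in the dentate gyrus (DG) of adult male Sprague-Dawley rats irrespective of the behavior the animals showed afterwards. Of the 25 bulk RNA-seq libraries in the series, 11 from the left dorsal DG entered the comparison, 5 from unstressed controls (animals 2, 14, 17, 28 and 32) and 6 from stress-exposed animals. The controls stayed in the home cage during the stress session, received a cage change and were little disturbed. Besides the stressor itself, the stressed rats had blood drawn during the session and were kept in another room for 2 nights afterwards. Effects of blood sampling and housing cannot be told apart from those of the stressor here. The stressed rats were wild type, like the controls, and spent 3 h immobilized in the presence of fox urine. They had been picked from the ends of the composite anxiety-like behavior scale, with 3 stress-low animals at scores of 0 to 2 (22, 33 and 34) and 3 stress-high animals at 13 to 15 (7, 19 and 20), whereas the controls came from scores of 0 to 6. All animals went through the same behavioral battery, and tissue punches were taken on day 9. The 6 stressed animals are therefore the extremes of a larger cohort, and each library is 1 animal. A 6th control library (animal 35) was left out because it stood apart from all others along the first principal component, at 56.0 against -13.7 to 2.28 in the other 11. The study's methods state that a hippocampal sample was excluded for contamination after low RNA quality and a repeat extraction, without naming the animal.

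The DG receives the main cortical input to the hippocampus through its granule cells, whose mossy fiber axons contact CA3. It carries dense mineralocorticoid and glucocorticoid receptors, and corticosteroids released by the adrenal during stress bind these receptors and change transcription of genes such as Fkbp5 and Sgk1. Stress within minutes to hours of tissue collection is well known to induce immediate early genes in this region, whereas the libraries here were made more than a week after the stressor.

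The libraries held 11656439 to 19477932 expected counts each, and 16312 to 16833 genes had a count above 0. Defining genes of granule cells were present, with mean control levels of 76.9 TPM (the level normalized for transcript length and depth) for Prox1, 362 TPM for C1ql2 and 106 TPM for Calb1, and the summed level of the granule cell markers spanned 1110 to 1606 TPM in the controls and 1143 to 1415 TPM after stress. Most genes of the choroid plexus and ependyma were too low to test, with 3 of 14 names tested. No 2 libraries agreed within sampling noise. In bulk tissue, a smaller number of cells of one type and less RNA in each of those cells cannot be told apart, which applies to each value below.

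No gene passed the test after adjustment. Of 13792 genes tested with edgeR (quasi-likelihood test, Benjamini-Hochberg adjustment), 0 were called between the 6 stress-exposed and the 5 control libraries, a share of 0%, and the smallest adjusted p was 0.922. At an unadjusted p under 0.05 there were 343 genes higher after stress (2.49% of those tested) and 276 lower (2.00%), 619 in all. DESeq2 on the same counts and limma on log2(TPM + 1) also called 0 genes, with 591 and 695 at an unadjusted p under 0.05. The typical difference was small. The median absolute log2 fold change was 0.07 and 23 genes differed by more than 1 on the log2 scale, against a median standard error of 0.09. For single genes outside the named non-overlapping set, the exact permutation p given below compares mean TPM of 5 and 6 libraries, is two-sided and unadjusted, and can go no lower than 0.00216. Where a gene was picked from a list for its small edgeR p, that choice biases its permutation p downward. Such a value describes the gene and is not a separate test of it. Counts of genes with p under 0.05 refer to the unadjusted edgeR p.

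**Figure D1:**
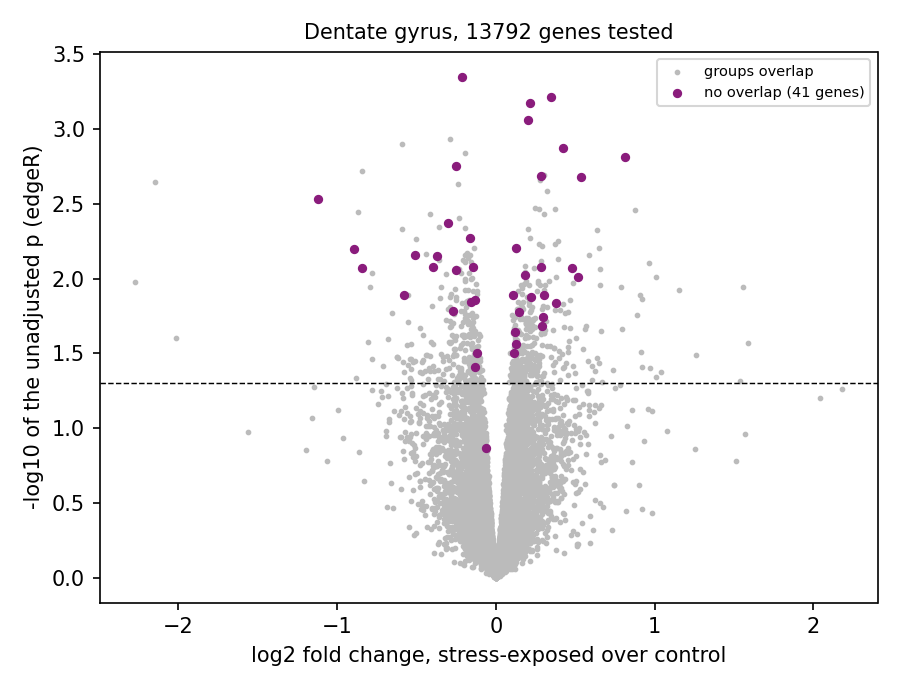
Log2 fold change of stress-exposed over control DG libraries (x axis) against the negative log10 of the unadjusted edgeR p (y axis) for 13792 genes, with the 41 genes whose control and stress libraries did not overlap in purple and a dashed line at the threshold of 0.05. Most non-overlapping genes lie within 0.5 of zero, and the genes with the widest fold changes mostly overlapped between groups.

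Genes shifted the same way in both behavioral groups were sought by asking which ones separated all 6 stressed animals from all 5 controls. Levels for this purpose were counts scaled to library size with TMM, the trimmed mean of M-values (TMM CPM), which corrects for library composition and does not correct for gene length. In 22 genes every stress library lay above every control (0.160% of the genes tested), and in 19 every stress library lay below (0.138%). Were the 11 libraries exchangeable between groups, a gene would separate in a given direction with a chance of 0.00216. As fractions, both shares lay below that, so the separation of single genes is no more frequent than chance gives. Of these 41 genes, 36 had a name and a single gene model, 21 of them higher and 15 lower. A separate fit with the 2 behavioral groups kept apart gave 66 genes with p under 0.05 in the same direction in both stress-low and stress-high (0.479%), of which 37 were higher and 29 lower. No gene met that threshold in opposite directions. Both groups were set against the same 5 controls, so their fold changes are not independent of each other. Stress-low against control alone gave 957 genes at p under 0.05 and stress-high gave 292, with 0 after adjustment in each and smallest adjusted p of 0.325 and 0.841.

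The count of non-overlapping genes depended on which animals were included. It was 25 with animal 35 put back among the controls, and it was between 68 and 287 when any 1 of the 11 libraries was left out, since fewer libraries separate more easily. Control animal 14 had the widest influence. Without it, 287 genes did not overlap and 1252 had p under 0.05, 762 of them higher, though still 0 passed adjustment.

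The 12 genes with the smallest p in each direction among the non-overlapping, named, single-model genes were taken, and 22 of these 24 are described below. Because each of them was picked for the absence of overlap, their values are a description of that pick, and each had an edgeR adjusted p of 0.922. In TPM, which was not composition-scaled here, 5 of the 12 higher and 7 of the 12 lower genes also did not overlap. Among the genes given with library values below, Hectd2, Nutm1, Fancd2, Pak4 and Acad11 overlapped in TPM.

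**Figure D2:**
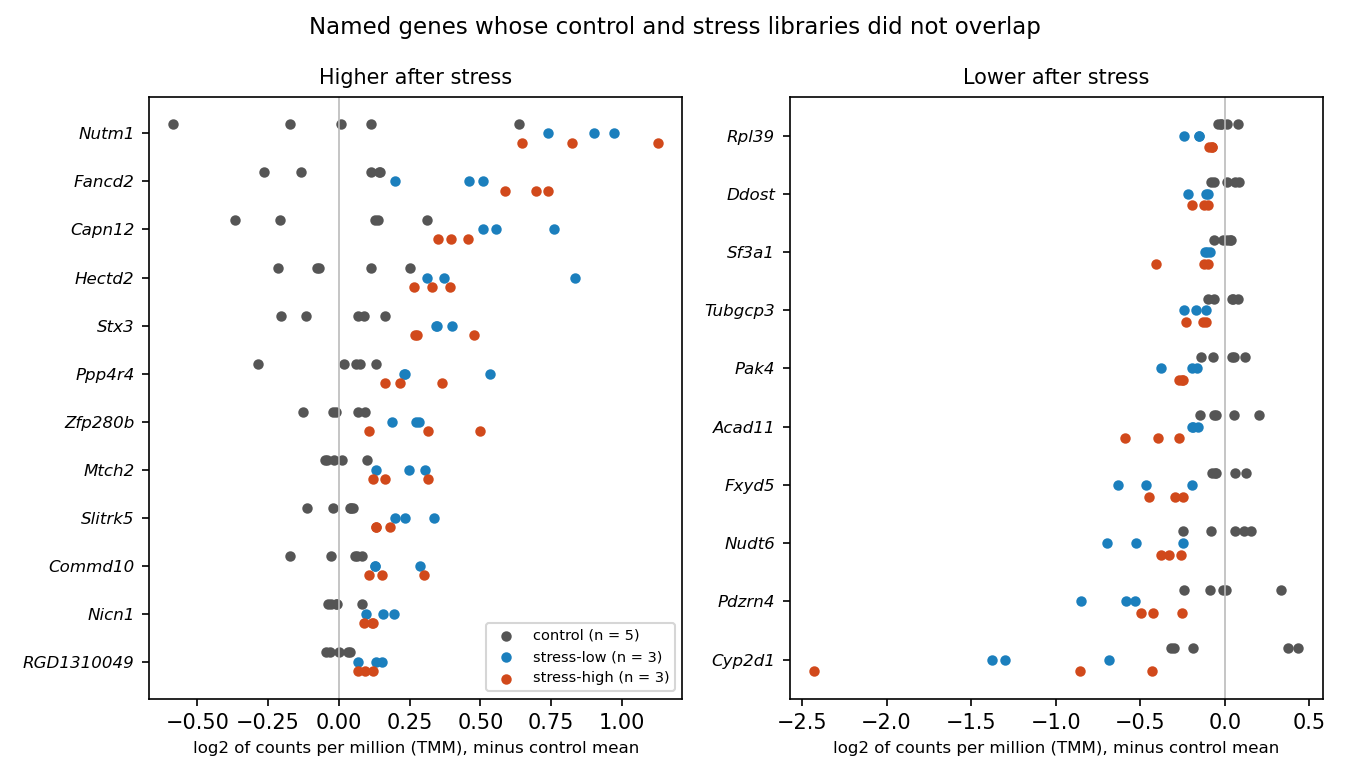
TMM CPM on the log2 scale, minus the mean of the 5 controls (x axis), for the 12 genes higher and 10 genes lower after stress, with 1 point per library. Control points are grey, stress-low blue and stress-high orange, and in each row the blue and orange points lie together on one side of all grey points.

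Stx3 (ENSRNOG00000021013), which encodes syntaxin 3, a SNARE protein of plasma membrane fusion, was higher after stress. Its level was 10.4, 11.1, 13.4, 12.6 and 12.8 TMM CPM in the controls, 15.3, 15.9 and 15.2 in stress-low and 16.7, 14.5 and 14.5 in stress-high, in the order of animals given above. Every stressed animal exceeded the highest control, and the log2 fold change was 0.35 ± 0.08 (SE). Slitrk5 (ENSRNOG00000009649), a postsynaptic adhesion protein with leucine-rich repeats, stood at 112, 124, 119, 125 and 124 TMM CPM in the controls, 142, 152 and 138 in stress-low and 132, 132 and 137 in stress-high. The stress-low animals were its highest 3 libraries, and the pooled log2 fold change was 0.20 ± 0.05 (SE). Among the lower genes, Fxyd5, a small membrane protein that modulates the sodium pump, stood at 4.26, 4.25, 4.62, 4.82 and 4.20 TMM CPM in the controls, 3.87, 2.86 and 3.20 in stress-low and 3.60, 3.73 and 3.24 in stress-high. The stress libraries spread more widely than the tight control cluster, with a log2 fold change of -0.37 ± 0.12 (SE).

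Pak4, a p21-activated kinase that acts on the actin cytoskeleton, was lower with 20.1, 16.8, 17.7, 19.2 and 19.1 TMM CPM in the controls, 16.5, 14.3 and 16.2 in stress-low and 15.6, 15.5 and 15.4 in stress-high. The stress-low and stress-high animals were interleaved below the controls, with a log2 fold change of -0.25 ± 0.07 (SE).

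Mtch2, a carrier-like protein that inserts others into the outer mitochondrial membrane, was the higher gene with the second smallest p, at 103, 114, 107, 105 and 103 TMM CPM in the controls, 127, 132 and 117 in stress-low and 133, 116 and 119 in stress-high. Control 14 came closest to the stress libraries, and the log2 fold change was 0.21 ± 0.05 (SE). Hectd2, a HECT-domain ubiquitin ligase, stood at 22.6, 25.6, 28.2, 22.4 and 20.4 TMM CPM in the controls, 29.4, 42.3 and 30.6 in stress-low and 31.1, 28.5 and 29.8 in stress-high. Stress-low animal 33 lay far above the other 5 stress libraries, and the gap between the highest control and the lowest stress library was narrow. Its log2 fold change was 0.42 ± 0.11 (SE). Acad11, an acyl-CoA dehydrogenase of fatty acid oxidation, was lower with 17.1, 16.1, 20.5, 17.2 and 18.5 TMM CPM in the controls, 15.6, 15.6 and 15.9 in stress-low and 14.7, 13.6 and 11.8 in stress-high. The stress-high animals were its lowest 3 libraries, and the pooled log2 fold change was -0.30 ± 0.09 (SE), with -0.42 ± 0.10 (SE) in stress-high and -0.19 ± 0.10 (SE) in stress-low.

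Fancd2, a Fanconi anemia protein of crosslink repair, was higher after stress at 2.13, 2.53, 2.58, 2.59 and 1.95 TMM CPM in the controls, 3.22, 3.33 and 2.68 in stress-low and 3.79, 3.52 and 3.91 in stress-high. Its lowest stress library, animal 34, lay just above the highest control, and the log2 fold change was 0.54 ± 0.14 (SE). It rested on 29 to 47 expected counts per control library and 31 to 76 per stress library.

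The widest fold changes of the 24 genes came from genes with few counts. Nutm1, known for its expression in testis, stood at 1.10, 1.02, 0.679, 0.903 and 1.58 TMM CPM in the controls, 2.00, 1.70 and 1.90 in stress-low and 1.80, 2.23 and 1.59 in stress-high. This rested on 10 to 26 expected counts in the controls and 22 to 43 after stress, the log2 fold change was 0.81 ± 0.21 (SE), and the left-out control read 2.63 TMM CPM, above all stress libraries. Cyp2d1, a cytochrome P450, stood at 0.735, 1.13, 0.679, 1.08 and 0.670 TMM CPM in the controls, 0.322, 0.340 and 0.519 in stress-low and 0.621, 0.155 and 0.462 in stress-high. Stress-high animal 19 had the lowest level with 3 expected counts, and the log2 fold change was -1.12 ± 0.31 (SE). On the log2(TPM + 1) scale of limma, which compresses low genes, it was -0.43 for Cyp2d1 and 0.31 for Nutm1, and with all 6 controls that of Nutm1 was 0.50. Cyp2d1 belongs to a family of near-identical genes among which reads can be split, so its level is uncertain. Pdzrn4, with PDZ and RING domains, was lower at 2.94, 2.32, 1.97, 2.35 and 2.19 TMM CPM in the controls, 1.61, 1.29 and 1.56 in stress-low and 1.74, 1.66 and 1.95 in stress-high. The 3 stress-low libraries were the lowest, with a log2 fold change of -0.51 ± 0.16 (SE).

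The others are given by their log2 fold changes. On the higher side they were Zfp280b, a zinc finger gene (0.28), Nicn1, a protein of the tubulin polyglutamylase complex (0.13), Ppp4r4, a regulatory subunit of protein phosphatase 4 (0.28), the calpain Capn12 (0.48), Commd10 (0.18) and RGD1310049 (0.11). On the lower side were the gamma-tubulin complex gene Tubgcp3 (-0.17), the oligosaccharyltransferase subunit Ddost (-0.14), the ribosomal protein gene Rpl39 (-0.13), the splicing factor Sf3a1 (-0.15) and Nudt6 (-0.39). Nudt6 lies antisense to Fgf2, and without known strandedness of the libraries the reads of such pairs cannot be told apart. Over the 12 higher genes the absolute log2 fold change spanned 0.11 to 0.81 with a median of 0.28, and over the 12 lower genes 0.13 to 1.12 with a median of 0.28.

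Kept apart by behavior, the 2 stress groups had the same sign for each of the 24 genes, which the choice of genes fixes. In stress-low, 12 of the 12 higher and 10 of the 12 lower genes had p under 0.05 against control, and in stress-high 9 and 8 did. These counts follow in part from the same choice. Pak4 had log2 fold changes of -0.25 ± 0.09 (SE) in stress-low and -0.26 ± 0.08 (SE) in stress-high, Stx3 had 0.36 ± 0.10 and 0.34 ± 0.10, and Ddost had -0.14 ± 0.06 and -0.14 ± 0.06. Other genes were further from zero in one group, as with Slitrk5 at 0.26 ± 0.05 in stress-low and 0.15 ± 0.05 in stress-high. None of the differences between stress-low and stress-high passed adjustment over all genes for the 24.

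**Figure D3:**
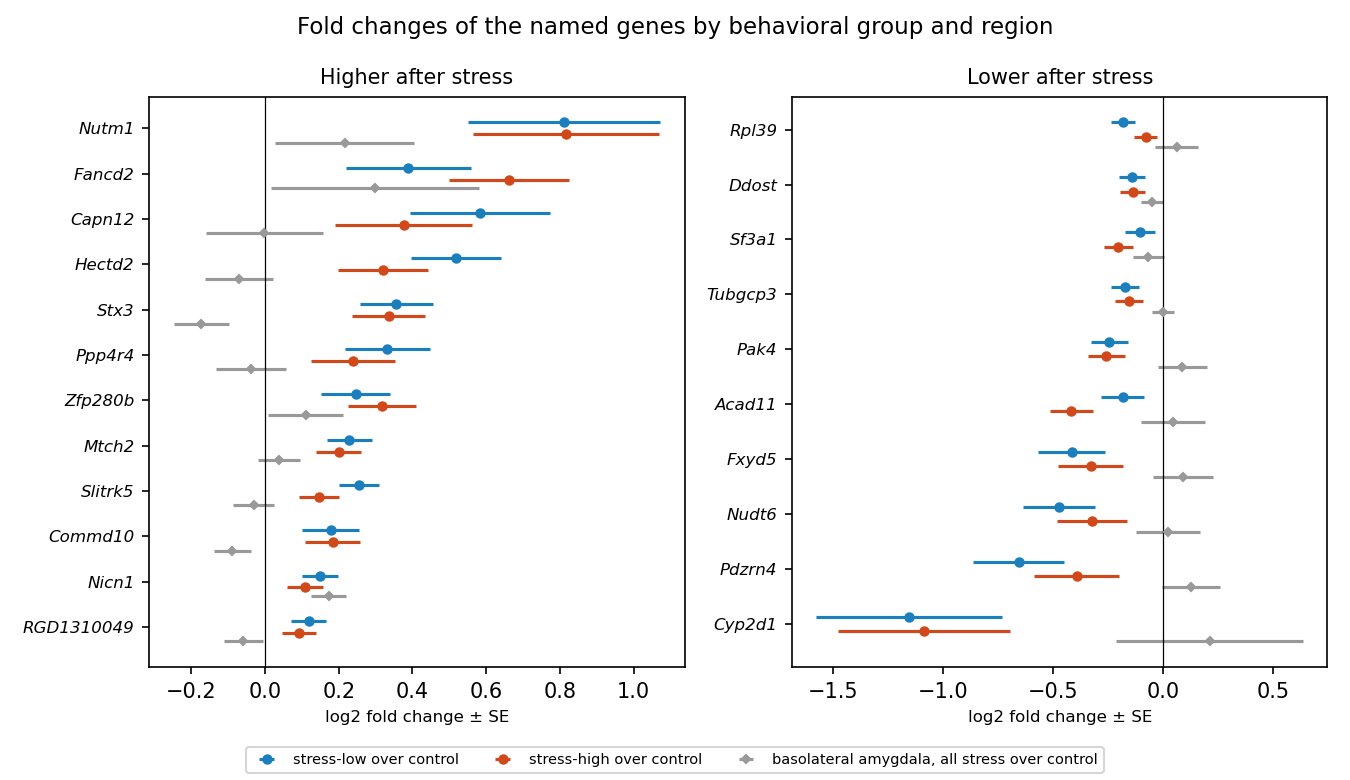
Log2 fold changes with SE (x axis) of the same 22 genes for stress-low over control (blue) and stress-high over control (orange) in the DG, and for pooled stress over control in the basolateral amygdala (grey diamonds). The blue and orange points share a side of zero in each row, while the grey diamonds lie on both sides of it.

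Animal 35, which did not enter the choice of genes, gave a level on the control side for a part of them. On a scale computed over all 12 libraries, it lay below all stress libraries for 7 of the 12 higher genes, within their range for 3 and above them for 2. For the 12 lower genes it lay above all stress libraries in 8, within their range in 3 and below them in 1. This library had been set aside for its distance from the others and had ribosomal protein genes at a summed 83254 TPM against 61424 to 72096 TPM in the controls that were used. The ribosomal protein gene Rpl39 was among the 8 lower genes above all stress libraries. How often this library lay outside the stress range over all genes was not counted, so the counts above are a description only.

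The basolateral amygdala (BLA) gave a second look at the same genes, with 11 libraries (5 control, 3 stress-low and 3 stress-high) of which 9 came from animals that also had a DG library used here. The BLA control library of animal 2 was left out because it stood apart along the first principal component, at 46.1, and the BLA library of animal 35 because its labels disagree on its group. Pooled stress against control in the BLA likewise called 0 of 14833 genes in edgeR, 634 had p under 0.05 (4.27%) and 58 did not overlap (0.391%). Of the 12 genes higher in the DG, 5 had the same sign in the BLA, and of the 12 lower genes 5 did. None of the 24 was non-overlapping there. Nicn1 was higher in the BLA at 0.17 ± 0.05 (SE), while Stx3 had the opposite sign at -0.17 ± 0.08 (SE), and both had an unadjusted edgeR p under 0.05 and an adjusted p of 0.996. The difference between regions was not tested.

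The levels of both corticosteroid receptor genes overlapped between stressed and control DG more than a week after exposure. Nr3c1, the glucocorticoid receptor gene, was annotated as 2 gene models, and the model ENSRNOG00000014096 stood at 30.0 ± 3.55 TPM (SD, n = 5) in the controls and 28.8 ± 2.02 TPM (SD, n = 6) after stress. Values of the other model are not given here, so the overlap stated for Nr3c1 is that of this model. Nr3c2, the mineralocorticoid receptor gene, stood at 73.9 ± 6.99 TPM (SD, n = 5) in the controls and 71.1 ± 5.78 TPM (SD, n = 6) after stress. Their log2 fold changes were -0.04 and -0.03. Fkbp5, a cochaperone that restrains the glucocorticoid receptor and is itself induced by it, was at 48.1, 39.8, 45.0, 47.3 and 35.3 TPM in the controls, 39.6, 43.2 and 41.7 in stress-low and 61.1, 46.8 and 44.2 in stress-high. Apart from stress-high animal 7, the stressed animals lay within the control range, and the pooled log2 fold change was 0.12 ± 0.11 (SE), with an exact permutation p of 0.545. It was 0.02 without animal 7 and 0.05 without control 32. Its log2 fold change was -0.04 ± 0.12 (SE) in stress-low and 0.26 ± 0.11 (SE) in stress-high, and the difference had an edgeR adjusted p of 0.999.

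Of 22 glucocorticoid-induced genes tested, 9 were higher and 13 lower after stress, and 1 in each direction had p under 0.05, beside 2.49% of all genes higher and 2.00% lower. The higher one was Sgk1, a kinase that regulates ion channels and transporters, at 37.1, 47.2, 44.0, 33.0 and 37.2 TPM in the controls, 56.5, 41.0 and 47.8 in stress-low and 37.8, 48.7 and 51.4 in stress-high. Its groups overlapped, and the log2 fold change was 0.26 ± 0.11 (SE), with an exact permutation p of 0.0887. The lower one was Ddit4, an inhibitor of mTORC1 signaling, at 79.4, 60.8, 60.8, 72.0 and 73.8 TPM in the controls, 56.1, 56.9 and 58.2 in stress-low and 63.4, 56.1 and 58.8 in stress-high. Only stress-high animal 7 lay within the control range, above controls 14 and 17, and the other stressed animals lay below every control. The log2 fold change of Ddit4 was -0.23 ± 0.07 (SE), with an exact permutation p of 0.013. The median log2 fold change of the list was -0.01, against -0.00049 over all genes tested, of which 6862 were higher and 6930 lower. Kept apart, the median was -0.12 in stress-low and 0.08 in stress-high, and the difference between these was not tested.

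Immediate early genes, which mark recent neuronal activity, were more often lower than higher. Of 22 tested, 14 were lower and 8 higher, with a median log2 fold change of -0.08, and only Klf10 had p under 0.05 (2.00% of all genes were lower at this threshold). Klf10, a zinc finger transcription factor, was at 26.6, 24.9, 21.0, 23.1 and 24.9 TPM in the controls, 18.6, 19.1 and 19.8 in stress-low and 22.6, 20.4 and 22.0 in stress-high. The stress-low animals were its lowest 3, and the log2 fold change was -0.22 ± 0.07 (SE), with an exact permutation p of 0.0152. Fos stood at 9.32, 7.09, 7.30, 4.51 and 3.04 TPM in the controls, 4.78, 3.41 and 4.22 in stress-low and 5.63, 4.46 and 4.75 in stress-high. Controls 2, 14 and 17 were the highest libraries while controls 28 and 32 fell within or below the stress range. Its log2 fold change was -0.43 ± 0.24 (SE), with an exact permutation p of 0.141. Arc, which encodes a cytoskeletal protein of synaptic plasticity, had a log2 fold change of -0.21 ± 0.13 (SE), with an exact permutation p of 0.169. Without control 2, the highest library of both genes, the log2 fold change was -0.10 for Arc and -0.26 for Fos. In the BLA 19 of the 22 genes were lower and 7 of these had p under 0.05, beside 276 of 14833 genes lower (1.86%).

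Pdyn had the smallest p among the neuropeptide precursors. It encodes prodynorphin, the precursor of the dynorphin opioid peptides stored in mossy fibers, and stood at 199, 125, 119, 177 and 216 TPM in the controls, 112, 86.7 and 147 in stress-low and 91.8, 59.9 and 56.2 in stress-high. All 3 stress-high animals and stress-low animals 22 and 33 lay below every control, while stress-low animal 34 lay within the control range. Its mean was 167 ± 43.6 TPM (SD, n = 5) in the controls and 92.2 ± 34.0 TPM (SD, n = 6) after stress and the pooled log2 fold change was -0.84 ± 0.22 (SE), with an exact permutation p of 0.0152. The value was -0.52 ± 0.22 (SE) in stress-low and -1.24 ± 0.23 (SE) in stress-high, and the difference between them had an edgeR adjusted p of 0.999. In the BLA, Pdyn had the opposite sign at 0.58 ± 0.23 (SE), with an edgeR adjusted p of 0.996.

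Tac3, which encodes the neurokinin B precursor, was also lower in both groups. It stood at 65.6, 44.3, 49.9, 49.0 and 59.8 TPM in the controls, 41.6, 33.9 and 33.8 in stress-low and 46.2, 34.5 and 48.1 in stress-high, with the lowest values in stress-low animals 33 and 34 and stress-high animal 19. The log2 fold change was -0.42 ± 0.12 (SE), with an exact permutation p of 0.0173. Cartpt, the precursor of the CART peptides, had opposite signs in the behavioral groups, at 4.76, 4.14, 8.37, 5.04 and 2.68 TPM in the controls, 5.28, 1.47 and 2.80 in stress-low and 14.7, 14.3 and 17.1 in stress-high. The stress-high libraries were the highest 3 and the stress-low libraries lay within or below the control range, and its pooled log2 fold change was 0.96 ± 0.50 (SE), with an exact permutation p of 0.19. It was -0.60 ± 0.39 (SE) in stress-low and 1.65 ± 0.31 (SE) in stress-high, and the difference had an edgeR adjusted p of 0.712. Npy and Sst, peptides of GABA interneurons, had log2 fold changes of -0.07 and -0.20, and the neurotrophin gene Bdnf had 0.09. Leaving out 1 library moved these over a range of -0.19 to -0.0040 for Npy, -0.30 to -0.13 for Sst and 0.06 to 0.16 for Bdnf. The Npy value moved by over 1.5 times without any library but those of stress-low animals 33 and 34, the Sst value without control 14 or stress-low animal 34, and the Bdnf value without control 28, control 32 or stress-high animal 7. Of the 19 precursors tested, 8 were higher and 11 lower. Pdyn and Tac3 were the 2 with p under 0.05, both lower, beside 2.00% of all genes.

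**Figure D4:**
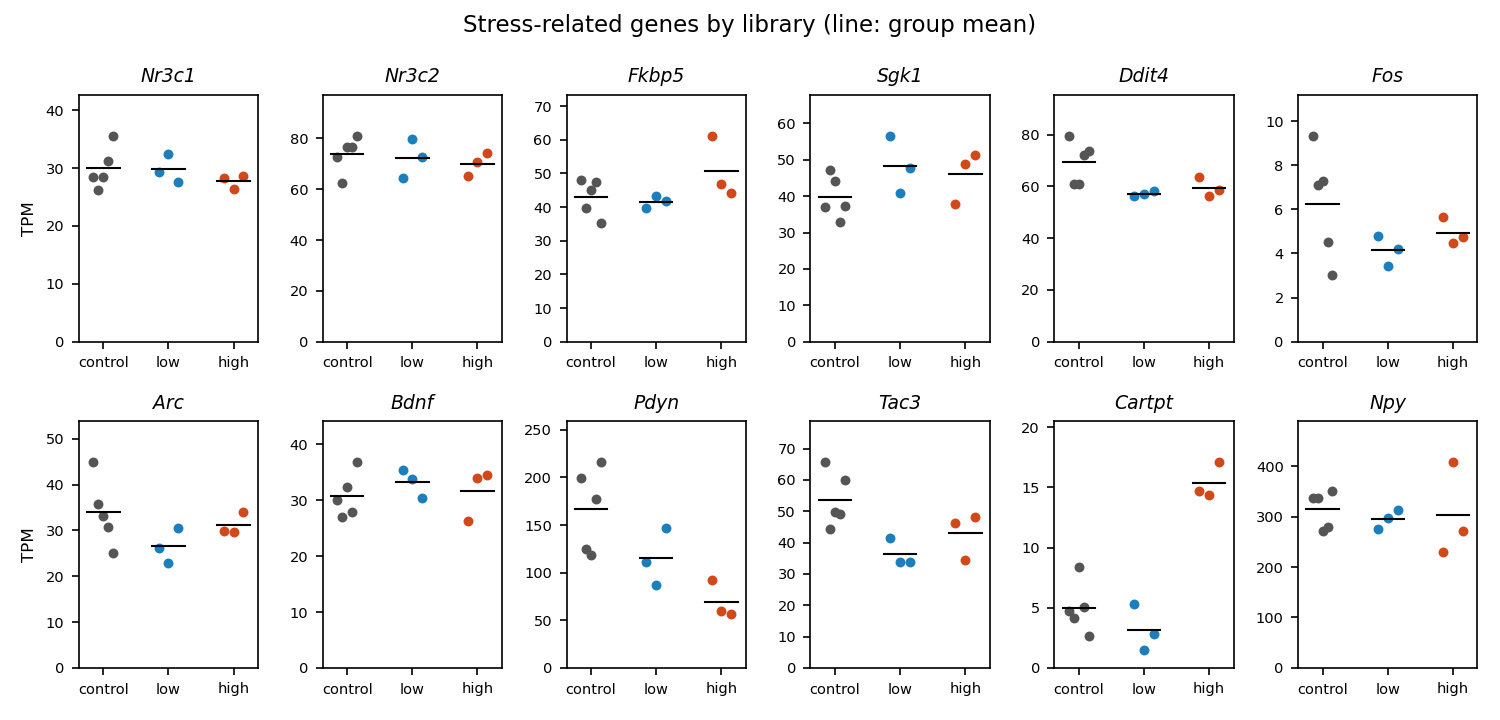
TPM (y axis, from 0) of 12 stress-related genes in the 5 control, 3 stress-low and 3 stress-high DG libraries, with 1 point per library and a line at each group mean. Pdyn and Tac3 were lower in both stress groups, the 3 stress-high libraries had the highest Cartpt levels, and the receptors Nr3c1 (1 of 2 gene models) and Nr3c2 overlapped between groups.

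RT1-A3, a class I major histocompatibility gene, had one of the widest pooled fold changes without separating the groups. It stood at 10.2, 8.38, 9.47, 9.04 and 0.120 TPM in the controls, 0.670, 0.450 and 7.89 in stress-low and 0.550, 0.280 and 0.610 in stress-high. Levels fell into a high and a low set, with control 32 in the low set and stress-low animal 34 in the high one, and the log2 fold change was -2.27 ± 0.78 (SE), with an exact permutation p of 0.0325. Class I genes are a family of near copies that vary between animals of an outbred stock, so reads may have been split among them. RT1-A3 had the smallest p of the list of interferon and antigen presentation genes. Of the 24 tested genes of that list, 14 were higher and 10 lower, with a median log2 fold change of 0.05. At p under 0.05 there were 2, both lower, beside 2.00% of all genes.

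Among cell type lists, genes of myelinating oligodendrocytes were mostly higher and those of oligodendrocyte progenitors lower. The difference between these lists was not tested, and the mean level of each overlapped between stressed and control libraries. Of 18 genes of myelinating oligodendrocytes, 16 were higher and 2 lower after stress with a median log2 fold change of 0.10, and 3 had p under 0.05, all higher, beside 2.49% of all genes. Their summed level spanned 1863 to 2518 TPM in the controls and 2095 to 2528 TPM after stress. Ugt8, the enzyme that makes galactosylceramide for myelin, stood at 14.1, 14.8, 16.1, 12.8 and 14.8 TPM in the controls, 16.9, 20.8 and 19.1 in stress-low and 18.2, 15.6 and 15.9 in stress-high. Only stress-high animals 19 and 20 lay within the control range, and the log2 fold change was 0.30 ± 0.08 (SE), with an exact permutation p of 0.013. The others were GJB1, the connexin of myelin gap junctions (0.42), and Opalin, an oligodendrocyte membrane protein (0.25). MBP, which encodes an abundant myelin protein, had a log2 fold change of 0.08.

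The 12 genes of oligodendrocyte progenitors were all lower, with a median log2 fold change of -0.07, and 3 had p under 0.05, beside 2.00% of all genes lower. These were the transcription factor Sox6 (-0.37), the growth factor Bmp4 (-0.39) and the receptor Pdgfra (-0.16). Pdgfra stood at 15.0, 15.8, 18.7, 14.8 and 16.3 TPM in the controls, 12.9, 17.2 and 12.7 in stress-low and 13.7, 13.9 and 15.0 in stress-high, and the groups overlapped through stress-low animal 33 and stress-high animal 20. The summed level of the progenitor genes spanned 186 to 229 TPM in the controls and 182 to 202 TPM after stress. In the BLA the myelin genes were higher in 18 of 18, with 9 at p under 0.05 (358 of 14833 genes, 2.41%, were higher there) and a median of 0.21, while the progenitor genes were higher in 7 and lower in 5.

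Astrocyte and vascular genes were mostly lower by small amounts. Of 16 astrocyte genes 15 were lower, with a median log2 fold change of -0.08, where 6930 of all 13792 genes were lower. Gfap, the astrocyte intermediate filament, was the only astrocyte gene with p under 0.05, beside 2.00% of all genes lower at this threshold. Gfap stood at 524, 413, 647, 372 and 440.4 TPM in the controls, 354, 463 and 362 in stress-low and 389.9, 380.1 and 372 in stress-high. Controls 2 and 17 were the highest libraries, the other 3 controls overlapped the stressed animals, and the log2 fold change was -0.29 ± 0.11 (SE), with an exact permutation p of 0.0628. The summed level of the astrocyte genes spanned 3046 to 4222 TPM in the controls and 2892 to 3266 TPM after stress. Of 16 endothelial and mural genes 14 were lower with a median of -0.12, and none had p under 0.05. Their summed level spanned 104.7 to 178 TPM in the controls and 99.7 to 129 TPM after stress. Their mean log2 level, minus the control mean, was 0.56 in control 17, -0.34 in control 28 and -0.28 in control 32. In the stressed animals it spanned -0.35 to 0.01. Control 17 was also the highest library for the astrocyte genes, at 0.27. With RLE size factors, all 6 controls or 1 library left out, the median spanned -0.20 to 0.07 for the vascular genes and -0.12 to -0.008 for the astrocyte genes. Other non-neuronal lists varied in direction. Microglia and complement genes were higher in 6 of 15 with a median of -0.04, red blood cell genes in 4 of 4 (0.11), choroid plexus and ependyma genes in 2 of 3 (0.07) and leptomeningeal fibroblast genes in 6 of 11 (0.00041), and none of these had p under 0.05. The part that cell composition played in the differences of single genes was not tested.

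Housekeeping lists leaned the same way. Of 98 models of cytosolic ribosomal protein genes 85 were lower after stress with a median log2 fold change of -0.06, and 12 had p under 0.05, all lower, beside 2.00% of all genes. Rpl39 was the single member that did not overlap. Of 91 respiratory chain genes 70 were lower with a median of -0.05, and 4 had p under 0.05, all lower, also beside 2.00%. The ribosomal genes were higher in 76 of 99 in the BLA. Ribosomal protein genes have many near-identical copies in the genome, and differences of this size lie within the spread of library scores shown in the plot of gene lists.

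Neuronal lists showed no common direction at this depth. GABA-A receptor subunits were higher in 9 of 12 with a median log2 fold change of 0.09. Gabra5, a subunit of extrasynaptic receptors, was the only subunit with an edgeR p under 0.05, beside 2.49% of all genes higher. Its log2 fold change was 0.13 ± 0.06 (SE), with an exact permutation p of 0.147. Glutamate receptor subunits were higher in 13 of 23, granule cell markers in 6 of 15 and markers of adult neurogenesis in 10 of 16. None of the genes in these 3 lists had p under 0.05, and Prox1, the transcription factor that keeps granule cell identity, had a log2 fold change of -0.02.

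**Figure D5:**
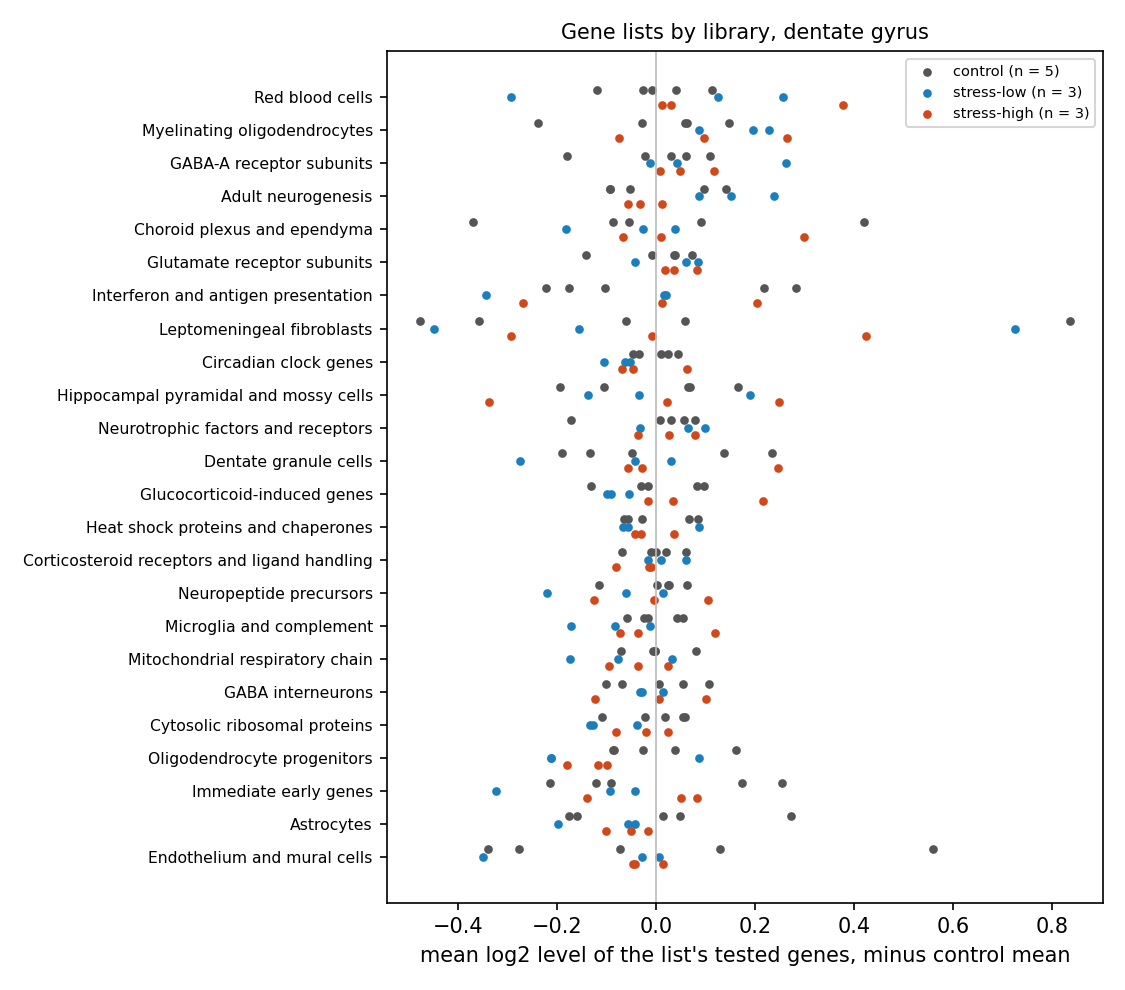
Mean log2 level of the tested genes of each list, minus the mean of the 5 controls (x axis), with 1 point per library and lists ordered by their median log2 fold change. For each of the 24 lists the range of the 6 stressed animals overlapped that of the controls, and myelinating oligodendrocytes and progenitors lie near opposite ends of the order.

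The promoters of the named genes were searched for the glucocorticoid response element in its strict palindromic form and the cAMP response element (TGACGTCA) on both strands, in RefSeq windows of 250 bases before to 50 bases after the gene start (assembly GRCr8, which is not the Rn5 build of the alignments). Of the 24 genes, 10 of the higher and 10 of the lower ones had a window. The glucocorticoid element was in 0 of these and in 5 of all 33469 windows (0.0149%). The cAMP element was in 1 of the 10 higher genes, 0 of the 10 lower genes and 612 of all windows (1.83%). It was also in Cartpt and Sst among the 8 stress-related genes with a window. The 2 windows below are shown because Fancd2 was higher in both behavioral groups and Cartpt had opposite signs in them, and capitals mark the cAMP element. A match describes letters in the window and is not evidence of use.
Fancd2, chr4:148234458-148234757, plus strand: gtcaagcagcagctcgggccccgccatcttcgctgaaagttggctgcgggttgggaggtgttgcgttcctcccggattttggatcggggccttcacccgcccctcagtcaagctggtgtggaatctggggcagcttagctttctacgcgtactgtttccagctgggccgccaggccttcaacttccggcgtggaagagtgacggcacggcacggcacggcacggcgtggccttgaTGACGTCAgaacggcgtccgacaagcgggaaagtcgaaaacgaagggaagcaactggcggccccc
Cartpt, chr2:32991186-32991485, minus strand: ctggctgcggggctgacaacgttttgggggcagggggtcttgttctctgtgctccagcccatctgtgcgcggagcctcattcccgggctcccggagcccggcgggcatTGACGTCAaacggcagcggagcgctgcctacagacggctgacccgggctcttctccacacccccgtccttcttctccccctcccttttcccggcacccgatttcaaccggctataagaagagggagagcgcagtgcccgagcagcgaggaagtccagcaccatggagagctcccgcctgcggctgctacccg
The element began 15 bases before the start of Fancd2 and 142 bases before that of Cartpt.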

How the data were processed

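Poly-A selected RNA of left DG punches was sequenced. Per the labels and the study's methods, alignment used STAR 2.6.0a, the rat Rn5 build and Ensembl gene models, RSEM 1.3.1 did the quantification, and the authors deposited expected counts and TPM per gene and library for 26312 identifiers, of which 5742 had no name. Strandedness is not given in the sources used here. RSEM divides reads shared by near-identical genes, which affects gene families.

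Expected counts were rounded, genes were filtered with filterByExpr (minimum count 10), scaled by TMM and tested with edgeR 4.0.16 (quasi-likelihood, adjusted p under 0.05) for stress-exposed against control, in R 4.3.3. A fit with 3 group means gave each behavioral group. DESeq2 1.42.0 and limma 3.58.1 were alternatives. Exact permutation tests of mean TPM were two-sided. EBSeq, which the authors used, was not run. Named genes were the 12 per direction with the smallest p among non-overlapping genes with a name and 1 model, fixed stress-related genes, and up to 3 members of each list with the smallest p. Members, lists and tests were chosen with earlier results of these data known. The fits were tested on simulated data. Replicates are separate animals. Library totals of 11656439 to 19477932 expected counts limit genes with few counts. Some genes are not reported here.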

Additional observations from a re-analysis of the deposited data

Results flagged for a closer look

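Of 68 sets of values checked (22 non-overlapping and 11 fixed genes plus the library totals, in controls and stressed animals), 4 had 1 library far from the rest of its group, where chance alone gives about 1 in 20. Hectd2 was at 42.3 TMM CPM in stress-low animal 33, against 28.5 to 31.1 in the other stressed animals. Nicn1 was at 105.9 TMM CPM in control 14, against 97.4 to 99.5 in the other controls. Sf3a1 was at 106 TMM CPM in stress-high animal 7, against 130.1 to 133 in the other stressed animals. Fkbp5 was at 128 TMM CPM in the same animal 7, against 82.0 to 97.5.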

How the results depend on the processing

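The count of genes passing adjustment was 0 under DESeq2, limma with pseudocounts of 1 and 0.1 and with no filter, RLE size factors, no low-count filter, 3 group means, all 6 controls, the score label or an animal number above 20 as a covariate, and without each library in turn. The stress-high animals all had numbers up to 20 and the stress-low animals numbers above it, so number and behavior cannot be told apart within the stressed animals. The count at an unadjusted p under 0.05 was 619 and lay between 542 and 861 under the alternatives that kept all libraries, and between 413 and 1252 without 1 library, the highest being without control 14. Limma on log2(TPM + 1) put 301 of 695 such genes on the higher side against 343 of 619 in edgeR, and all 6 controls put 320 of 712 there. The number of non-overlapping genes was 41, 37 in TPM, 25 with all 6 controls and 68 to 287 without 1 library. None of the 24 named genes changed sign or passed adjustment in any alternative. The choice of non-overlapping genes largely fixes the sign, so its constancy is no measure of stability for these genes. Their log2 fold changes moved by over 1.5 times on the log2(TPM + 1) scale for low genes (among them Cyp2d1 -0.43, Nutm1 0.31, Fancd2 0.26, Pdzrn4 -0.27, Capn12 0.28) and with all 6 controls for Nutm1 (0.50), Capn12 (0.24) and Rpl39 (-0.24). Pooled Cartpt was 0.48 to 0.52 under limma and 3 group means. The log2 fold change of Nr3c2 reversed to 0.071 with all 6 controls, that of Nr3c1 spanned -0.074 to 0.022 without 1 library, reversing without control 32, and the cause was not tested. Of the 24 list medians 14 changed sign in at least 1 alternative, and those of myelinating oligodendrocytes, oligodendrocyte progenitors, astrocytes, immediate early genes, ribosomal proteins, the respiratory chain and GABA-A subunits did not.

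With the replicate number of the labels as a block, 0 genes passed adjustment and 580 had p under 0.05. Samples with the same number did not deviate together (correlations of -0.19 to 0.09 over 14 pairs), which by itself cannot exclude a pairing. In the labels, stress-high animals 19 and 20 both carried the number 2, so the numbers do not match single animals across groups. With 5 against 6 animals and median standard errors of 0.09 on the log2 scale, small or animal-specific differences could not be called at this depth, and low-count genes are the least certain.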
